A study of Homo sapiens with 6 samples.

Results

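The genes described are the nuclear-encoded subunit genes of the mitochondrial respiratory chain, taken by symbol from the array's annotation (NDUFA, NDUFB, NDUFC, NDUFS and NDUFV genes with a number, NDUFAB1, SDHA to SDHD, UQCR genes, CYC1, COX4 to COX8 genes and ATP5 genes). The rule found 27 of the 14884 genes named by the annotation used here: 7 of complex III, 17 of complex IV, 3 of complex V, and 0 of complexes I and II, whose subunit genes are therefore not analysed here. Complexes III to V were covered in part only. UQCRFS1, UQCRQ, UQCR10 and UQCR11 of complex III, which the rule would match, were not among the 27. Nor was NDUFA4, counted here with complex IV, and only 3 ATP5 genes were. The 7 of complex III include the pseudogene UQCRBP1. Of the 27, 22 were bright enough to be tested: 6 of complex III, 13 of complex IV and 3 of complex V. Where a gene had several probe sets, the brightest on average was used.

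The respiratory chain passes electrons from NADH and succinate to oxygen and pumps protons across the inner mitochondrial membrane. Complex III, the cytochrome bc1 complex, moves electrons from ubiquinol to cytochrome c, complex IV, cytochrome c oxidase, passes them to oxygen, and complex V, the ATP synthase, uses the proton gradient to make ATP. Most subunits are encoded in the nucleus and imported, while a few core subunits come from mitochondrial DNA, and several complex IV subunits have alternative forms made in muscle, lung or testis.

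RNA came from MDA-MB-231, a triple-negative human breast cancer cell line with mutant p53, grown in serum-containing medium. Cells were transfected, with a lipid reagent, with an siRNA against ATM (siATM), an siRNA against p53 (sip53) or the control siRNA siNC, so every group carries a transfected siRNA. There were 2 samples per siRNA, each on 1 Affymetrix Human Gene 2.0 ST array, and the labels give neither the time after transfection nor the siRNA sequences. Whether the 2 samples of an siRNA were cultured separately is not stated in the labels, and the p-values therefore describe the spread of these samples alone, which could be technical. Fewer cells of a kind and less RNA per cell cannot be told apart in such samples.

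All values are log2 units of the deposited table, and a difference of 1 is a doubling of signal. The median of an array lay between 5.95 and 5.98. Of the mesenchymal-type markers named for this line, 7 of 10 were on the array by name and all 7 were tested, with VIM at 11.6 to 11.7 and AXL at 12.6 to 12.7. The hormone receptor genes ESR1 and PGR and the luminal factor FOXA1 were under the brightness limit of 5.96. The other 6 of the 9 luminal markers named were above it, among them EPCAM (8.93 to 9.09) and KRT19 (10.5 to 10.9). Across the 22 tested members the median SD within groups was 0.0698, close to the 0.0678 of all 10640 genes tested.

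After siATM, the tested subunit genes of complexes III to V shifted little. Against siNC, 3 of 22 rose: UQCRB of complex III (1.23-fold) and COX5B (1.16-fold) and COX6B1 (1.25-fold) of complex IV. None fell. The means of 19 of the 22 were above the siNC means and 3 were below, where 49.9% of all tested genes were above. The median log2 difference was 0.11 over the members and -0.00062 over all tested genes. No member reached 1.5-fold. For all 22 the 95% interval of the difference, not adjusted for the number of genes, lay within 1.5-fold either way, as it did for 89.9% of all tested genes.

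The calls are an adjusted p below 0.05 in limma, fitted and adjusted over all 10640 genes. In that fit 25.5% of all tested genes changed after siATM, with 12.5% higher and 13% lower, so the 13.6% of members that rose is near the background. Dropping single arrays changed the count of 3: it was 0 without siNC replicate 1, without siNC replicate 2 or without siATM replicate 1, and 1 without either sip53 array, which enters only through the shared estimate of the spread. It was also 0 without the filter on dim genes and 5 with a stricter filter.

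Both siATM arrays lay above both siNC arrays for 14 of the 22 members, or 63.6%, against 31.9% of all tested genes, and both lay below for 1 member (4.55%, against 30.8%). Taken array by array, the median difference of the 22 members from their siNC means was 0.14 in siATM replicate 1 and 0.083 in siATM replicate 2. The siNC arrays lay at 0.023 and -0.023 on the same scale, and the sip53 arrays at 0.053 and 0.067. Replicates also differed: 17 of 22 members were higher in siATM replicate 1 than in replicate 2, 16 of 22 in siNC replicate 1 and 6 of 22 in sip53 replicate 1. Over all tested genes those shares were 52.4%, 52.1% and 46.9%. How much of the siATM shift comes with this movement between arrays was not tested.

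**Figure D1:**
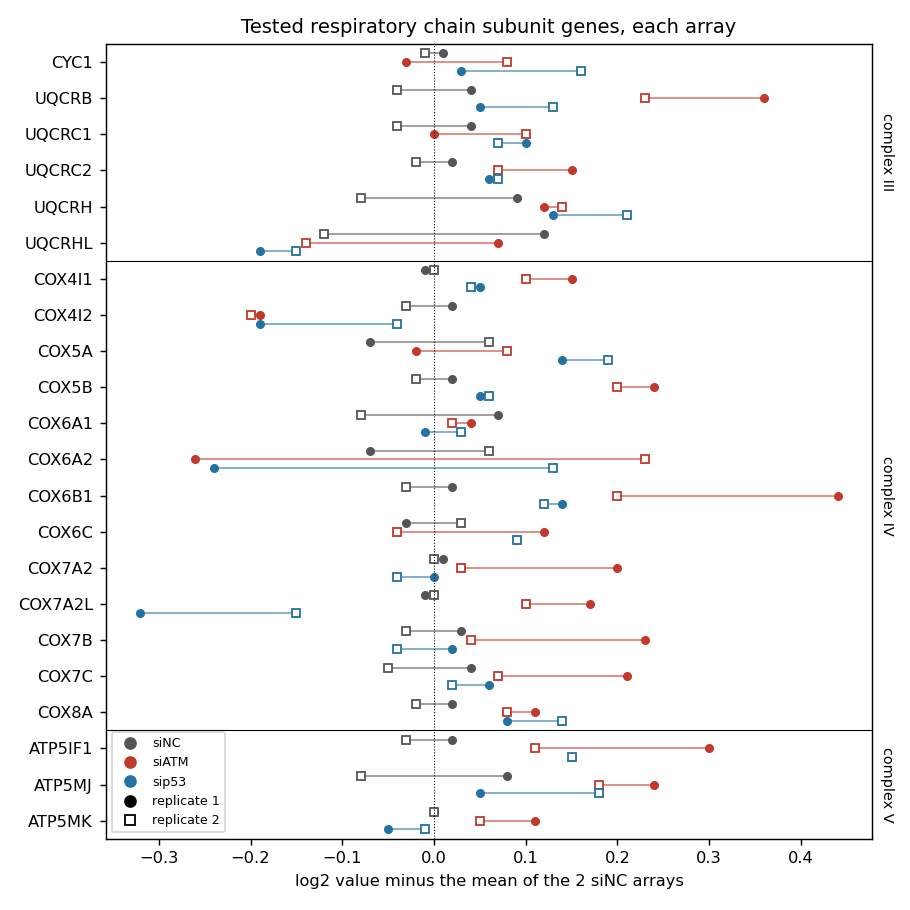
Log2 value of each of the 22 tested members in each array minus the mean of the 2 siNC arrays, by complex; filled circles are replicate 1, open squares replicate 2, and a line joins the 2 arrays of a group. Both siATM arrays lie to the right of both siNC arrays for 14 members, and COX6B1 and UQCRB lie farthest right.

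In complex III, 1 of 6 tested genes rose after siATM, with a median difference of 0.078. UQCRB encodes the small subunit that helps form the ubiquinone-binding site. Its log2 values were 7.85 and 7.77 with siNC, 8.17 and 8.04 with siATM, and 7.86 and 7.94 with sip53. Both siATM arrays were above the other 4, which gives a log2 difference from siNC of 0.30 (SE 0.070, limma adjusted p = 0.0205). Leaving out siATM replicate 1, siNC replicate 1 or siNC replicate 2 ended the call (adjusted p at most 0.113), as did testing the dim genes too.

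The measured genes for the core of complex III, which do not include UQCRFS1, stayed nearer to the controls. UQCRC1 and UQCRC2, the core proteins, had log2 differences of 0.047 (SE 0.064) and 0.11 (SE 0.059) after siATM, and CYC1, which encodes cytochrome c1, had one of 0.026 (SE 0.069). UQCRH, the hinge protein between cytochrome c1 and cytochrome c, was at 7.19 and 7.02 with siNC, 7.22 and 7.24 with siATM, and 7.23 and 7.31 with sip53. The siNC arrays of UQCRH had an SD of 0.12, as large as its siATM difference of 0.12 (adjusted p = 0.262). UQCRHL, a near-identical copy of UQCRH, had a difference of -0.037 (adjusted p = 0.82). Probe sets of such copies can share signal, so the 2 genes cannot be told apart with confidence.

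Complex IV had the other calls. COX5B encodes a zinc-binding subunit on the matrix side. Its values were 8.58 and 8.54 with siNC, 8.80 and 8.76 with siATM, and 8.61 and 8.62 with sip53. The siATM arrays stood above the other 4 by more than the spread within any group, with a difference of 0.21 (SE 0.056, adjusted p = 0.0293) from siNC.

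COX6B1 encodes the subunit on the intermembrane side that joins the monomers of the complex IV dimer. It was at 9.21 and 9.16 with siNC, 9.63 and 9.39 with siATM, and 9.33 and 9.31 with sip53. The siATM replicates lay farther apart than those of the other groups, and the lower of them was still above all siNC and sip53 arrays. The log2 difference from siNC was 0.32 (SE 0.084, adjusted p = 0.0293), and it was 0.20 without siATM replicate 1. In the 6 fits that each drop 1 array, COX5B passed in none (adjusted p at most 0.142) and COX6B1 in the fit without siATM replicate 2 alone (at most 0.128).

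**Figure D2:**
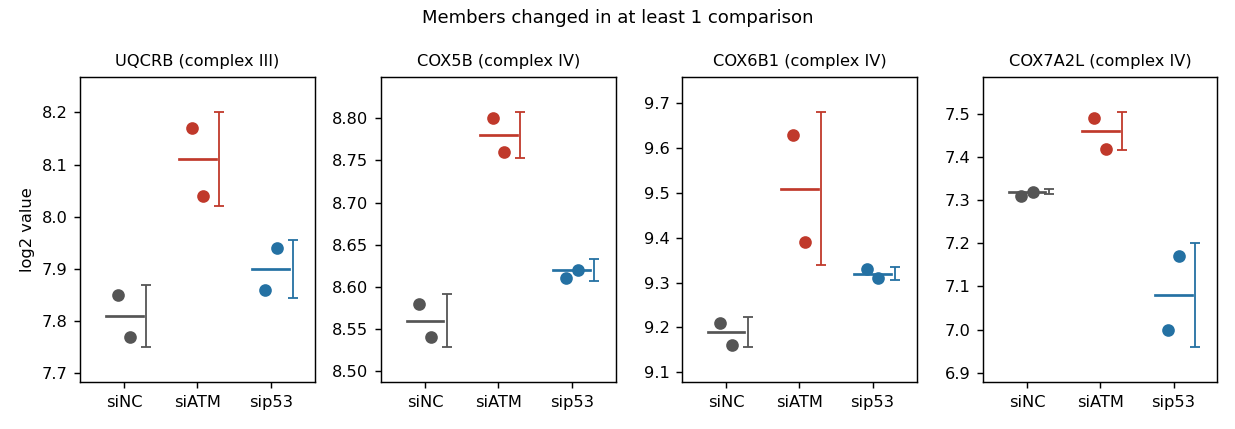
Log2 values of the 4 members that changed in at least 1 comparison, for siNC, siATM and sip53; points are single arrays, horizontal lines group means, and bars the mean ± SD (n = 2). UQCRB, COX5B and COX6B1 are highest in the siATM arrays, and COX7A2L is lowest in the sip53 arrays; the vertical axes do not start at 0.

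The promoters of COX5B and COX6B1 are shown because these genes rose after siATM and because respiratory chain genes are known to be driven in part by the ETS factor GABPA, with NRF1 and YY1. The sequences are the 250 bases before the start of transcription in RefSeq (GRCh38.p14), 5′ to 3′ on the gene's strand, with matches to the 3 motifs below in capitals. The build behind the array table is not given in these sources.
COX5B, chr2:97645812-97646061, plus strand: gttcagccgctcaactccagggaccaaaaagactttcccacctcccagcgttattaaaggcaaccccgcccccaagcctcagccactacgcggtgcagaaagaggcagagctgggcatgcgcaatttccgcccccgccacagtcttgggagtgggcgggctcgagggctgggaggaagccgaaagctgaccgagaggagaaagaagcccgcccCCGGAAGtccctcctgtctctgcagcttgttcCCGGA
COX6B1, chr19:35648073-35648322, plus strand: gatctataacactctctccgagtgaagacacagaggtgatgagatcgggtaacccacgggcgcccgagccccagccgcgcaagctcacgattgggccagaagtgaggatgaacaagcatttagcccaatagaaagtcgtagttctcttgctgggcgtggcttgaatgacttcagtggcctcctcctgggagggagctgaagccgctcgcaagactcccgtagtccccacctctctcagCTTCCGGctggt

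The motifs searched on both strands were CCGGAAG for GABPA, AAGATGG for YY1 and the consensus of NRF1 (a longer run with one free base), over 250 bases before to 50 after each start. COX5B held GABPA letters from base -37 to -31 and from -5 to 2, and COX6B1 held them on the opposite strand from -12 to -6, counted from the start. A promoter was matched for 17 of the 22 tested members, UQCRB not among them. The GABPA letters were in 7 of the 17 (ATP5MK, COX4I1, COX5B, COX6A1, COX6B1, COX8A and UQCRH), or 41.2%, against 20.3% of the 8223 tested genes with a promoter and 10.3% of all 35116 RefSeq promoters in the table. The NRF1 consensus was in 2 of the 17 (ATP5MJ and UQCRC1; 11.8% of tested genes, 5.78% of all promoters). A shorter NRF1 form, GCATGCG, was tried after the promoters had been seen and matched 2 other members, COX5B and COX6A1 (7.14% of tested genes, 3.91% of all promoters), so which members match NRF1 changed with the form searched, and the short form is not in capitals. COX7A2L, which differed between the knockdowns, had 2 promoters in the table, and neither held any of these letters; they are not shown. The YY1 letters were in 3 (COX7C, UQCRC1 and UQCRC2; 8.91% of tested genes, 5.84% of all promoters). A match is a run of letters, not a bound site. After siATM, the NRF1 gene differed by -0.028 (SE 0.065, limma adjusted p = 0.784) and YY1 by 0.17 (SE 0.072, adjusted p = 0.131). GABPA was not among the list genes tested. Whether these factors act on these promoters was not tested. Of the 7 genes with GABPA letters, COX5B and COX6B1 rose after siATM and the other 5 had log2 differences of 0.036 to 0.13 that did not pass.

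The other 11 tested complex IV genes did not pass after siATM. COX4I1, the largest nuclear subunit, was at 12.38 and 12.39 with siNC, 12.54 and 12.49 with siATM, and 12.44 and 12.43 with sip53. Its siATM arrays were above the other 4, but the difference of 0.13 (SE 0.055) had an adjusted p of 0.133. COX4I2, the lung-type and hypoxia-linked form of the same subunit, lay the other way, at 6.78 and 6.73 with siNC, 6.57 and 6.56 with siATM, and 6.57 and 6.72 with sip53. It was the lowest of the 22 after siATM, with a difference of -0.19 (SE 0.068, adjusted p = 0.0800).

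Small membrane subunits of complex IV sat in between. After siATM, COX7A2, COX7B and COX7C had log2 differences of 0.11 (SE 0.069), 0.13 (SE 0.075) and 0.14 (SE 0.070), with adjusted p from 0.180 to 0.282. In each of these the siATM arrays lay above the siNC arrays and replicate 1 was the higher. COX8A, at 12.41 and 12.37 with siNC and 12.50 and 12.47 with siATM, had a difference of 0.087 (SE 0.058). COX5A, a matrix-side subunit, and COX6C, a membrane subunit, had differences of 0.034 (SE 0.070) and 0.047 (SE 0.070), with arrays that overlapped.

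The muscle and testis forms of complex IV subunits were dim. COX6A2, the heart and muscle form, passed the filter at 6.27 and 6.40 with siNC, but its siATM arrays were at 6.08 and 6.57, so its difference of -0.014 had an SE of 0.17. COX7A1, the muscle form of COX7A2, and COX6B2, COX7B2 and COX8C, forms known from testis, stayed under the limit of 5.96 in every group mean (at most 5.94) and were not tested, as was the pseudogene UQCRBP1, whose siATM mean alone (5.99) was above it. COX6A1 had 2 probe sets that disagreed in level. The one used lay between 13.26 and 13.41, with a difference of 0.036 after siATM and 0.013 after sip53, while the dimmer one lay between 5.93 and 6.25, with differences of 0.12 and 0.23.

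The 3 complex V genes measured are peripheral to catalysis, and none passed after siATM. ATP5IF1, the inhibitor that blocks ATP hydrolysis by the synthase, was at 8.46 and 8.41 with siNC, 8.74 and 8.55 with siATM, and 8.59 and 8.59 with sip53. Its siATM difference was 0.21 (SE 0.072, adjusted p = 0.0738) and its sip53 difference 0.16 (SE 0.072, adjusted p = 0.225). The siATM replicates of ATP5IF1 overlapped the sip53 arrays but not the siNC arrays.

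ATP5MJ, a small membrane subunit, was at 7.96 and 7.80 with siNC, 8.12 and 8.06 with siATM, and 7.93 and 8.06 with sip53, a siATM difference of 0.22 (SE 0.078, adjusted p = 0.0848). With the filter at the 70th percentile, which tests fewer genes, ATP5IF1 (adjusted p = 0.0344) and ATP5MJ (adjusted p = 0.0409) passed. ATP5MK, a small subunit of the synthase dimer interface, differed by 0.082 (SE 0.057). The complex V median of 0.21 rests on 3 genes and was 0.12 without siATM replicate 1 and 0.14 without siNC replicate 2. The complex IV median of 0.11 was 0.072 without siATM replicate 1, and the complex III median was 0.025 without siNC replicate 2.

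After sip53, 0 of 22 members passed in limma, against 10.6% of all tested genes. At an unadjusted p below 0.05 there was 1 member, COX7A2L, against 26.4% of all tested genes. With a variance trend and robust moderation 0 passed, and with the filter at the 70th percentile 1 passed, COX7A2L (lower, limma adjusted p = 0.037). The means of 15 members were above siNC and 7 below, with a median of 0.059, where 54.2% of all tested genes were above and their median was 0.014. Medians by complex were 0.088 in III, 0.047 in IV and 0.12 in V. Without siNC replicate 2 they were 0.047, 0.0082 and 0.039. For all 22 members the unadjusted 95% interval lay within 1.5-fold, as for 94.9% of all tested genes.

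COX5A had the highest sip53 difference in complex IV. It was at 10.87 and 11.00 with siNC, 10.92 and 11.02 with siATM, and 11.08 and 11.13 with sip53, and the sip53 arrays lay above the other 4. The difference of 0.16 (SE 0.070) did not pass (adjusted p = 0.190). In complex III the highest was UQCRH at 0.17 (SE 0.073, adjusted p = 0.195) and the lowest its copy UQCRHL at -0.17 (SE 0.10, adjusted p = 0.330). Both sip53 arrays were above both siNC arrays for 12 of 22 members (54.5%, against 33.1% of all tested genes) and below for 5 (22.7%, against 25.8%). Both comparisons use the same siNC arrays, so they are not independent.

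**Figure D3:**
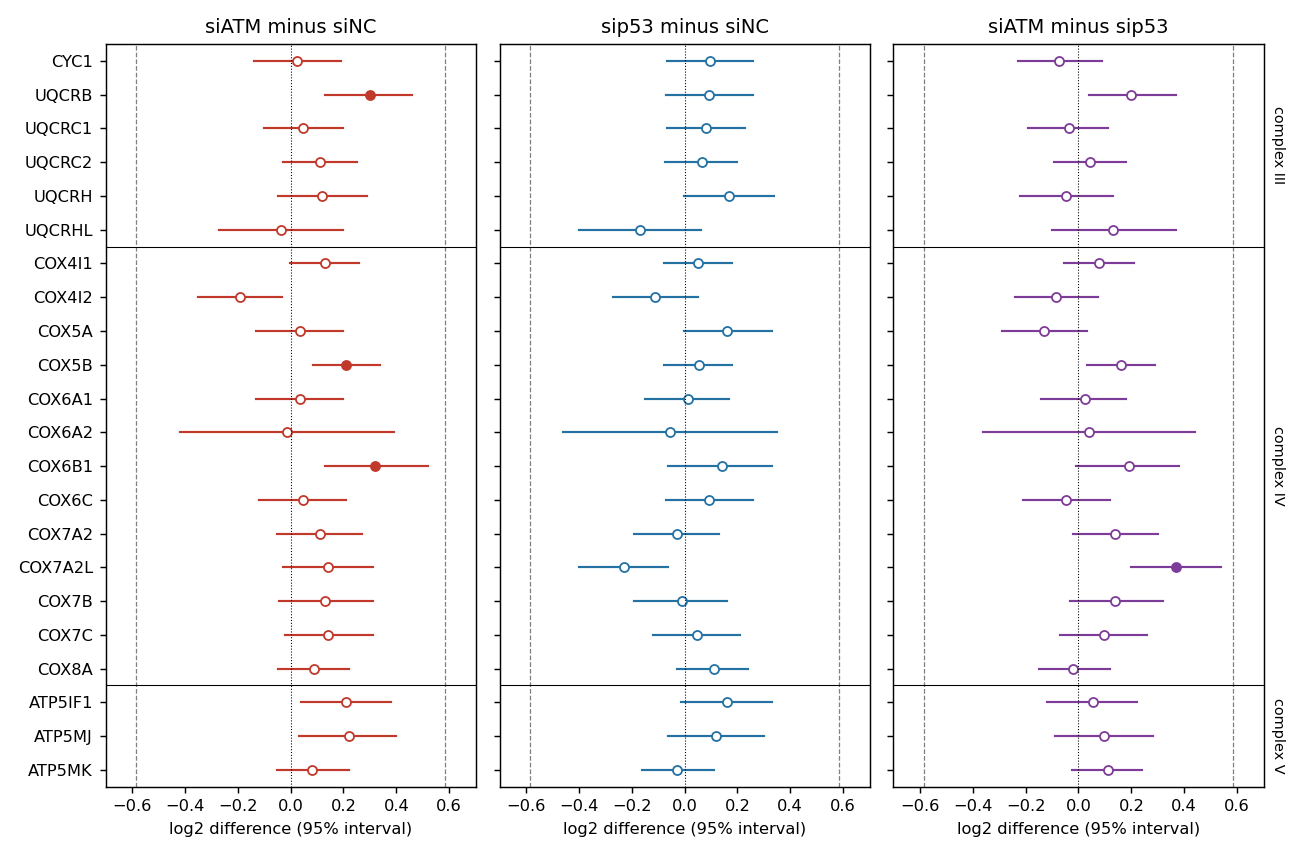
Log2 difference of each tested member with its unadjusted 95% interval in siATM minus siNC, sip53 minus siNC and siATM minus sip53; filled points have a limma adjusted p below 0.05 and dashed lines mark 1.5-fold. All intervals lie between the dashed lines, with 3 filled points in the first panel, 0 in the second and 1, COX7A2L, in the third.

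In the direct comparison of the knockdowns, 1 of 22 members differed, COX7A2L, against 30.3% of all tested genes that differed in either direction and 14% that were higher with siATM. COX7A2L encodes SCAF1, a relative of the COX7A subunits that links complex IV to complex III in respiratory supercomplexes. Its values were 7.31 and 7.32 with siNC, 7.49 and 7.42 with siATM, and 7.0 and 7.17 with sip53. The groups did not overlap: siATM was highest, siNC between and sip53 lowest. The difference between siATM and sip53 was 0.37 (SE 0.071, adjusted p = 0.00773), or 1.29-fold. Against siNC, neither the siATM difference of 0.14 (SE 0.071, adjusted p = 0.200) nor the sip53 difference of -0.23 (SE 0.071, adjusted p = 0.0873) passed. Without sip53 replicate 1, the lowest array, the direct difference was 0.29 (adjusted p = 0.0536) and was not called.

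The other members gave direct differences between -0.13 for COX5A and 0.20 for UQCRB. UQCRB (SE 0.070, adjusted p = 0.0655) and COX5B (0.16, SE 0.056, adjusted p = 0.0663) came nearest to the threshold, and COX6B1 was at 0.19 (SE 0.084, adjusted p = 0.139). After each array was centred on the median of the tested genes, UQCRB (adjusted p = 0.0376) and COX5B (adjusted p = 0.0403) also passed. The 3 rises after siATM were therefore not shown to differ from sip53 in the fit as deposited. All 22 intervals again lay within 1.5-fold, against 87.5% of all tested genes.

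Genes that serve the chain were taken from lists by function. Among 48 tested assembly factors, which build the complexes without being part of them, 7 rose and 6 fell after siATM, near the 12.5% and 13% of all tested genes. For complex III, 3 of 8 rose and 0 fell (median 0.13): UQCC3 and LYRM7, which help mature cytochrome b and insert the iron-sulfur protein, each rose 1.25-fold (UQCC3 0.32, SE 0.057, adjusted p = 0.0072; LYRM7 0.32, SE 0.086, adjusted p = 0.034), and UQCC2 rose by 0.20. LYRM7 was the 1 member of that list that also rose after sip53 (0.40, SE 0.086, adjusted p = 0.0296). That sip53 call was lost without the filter on dim genes and in 4 of 6 fits with an array dropped. When single arrays were dropped, UQCC3 kept its siATM call in all 6 fits, LYRM7 lost it in 5 (adjusted p up to 0.127) and UQCC2 in 6 (up to 0.204). The UQCC2 call was lost in 11 of 14 alternatives, quantile normalization and centring included.

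Of 21 complex IV assembly factors, 2 rose and 2 fell after siATM (median 0.041), beside 12.5% and 13% of all tested genes. SURF1, an early assembly factor whose loss is known from Leigh syndrome, was at 8.44 and 8.43 with siNC, 8.86 and 8.96 with siATM, and 8.45 and 8.44 with sip53. The siATM arrays of SURF1 lay above the other 4, a 1.39-fold rise (0.47, SE 0.059, adjusted p = 0.00191) that held in all 6 fits with an array dropped. COA6, a copper-delivery factor, rose by 0.36 (SE 0.077), while TACO1, the translational activator of the COX1 subunit (-0.36, SE 0.071), and CMC2 (-0.35, SE 0.088) fell. COA6 and TACO1 each lost the call in 1 of 6 fits with an array left out, and CMC2 in 3.

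ATPAF1, the chaperone that helps assemble the catalytic head of complex V, had the largest fall among the assembly factors after siATM. It was at 7.65 and 7.63 with siNC, 7.06 and 7.07 with siATM, and 7.79 and 7.77 with sip53. The siATM arrays were far below the rest, a 1.49-fold fall (-0.58, SE 0.054, adjusted p = 0.000771), while the other 3 tested complex V factors did not pass. SDHAF3, which helps insert iron-sulfur clusters into complex II, fell by a similar amount, from 6.71 and 6.56 to 6.15 and 5.99 (-0.57, SE 0.095, adjusted p = 0.0055), and was at 7.01 and 6.81 with sip53. SDHAF2, which attaches the flavin, fell 1.18-fold (-0.24, SE 0.069). Thus 2 of 4 complex II factors fell and 0 rose, where 13% of all tested genes fell and 12.5% rose. ATPAF1 and SDHAF3 kept their calls with any single array dropped, and SDHAF2 lost its call in 5 of 6 such fits (adjusted p up to 0.212).

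Of 11 complex I assembly factors, NDUFAF7 (0.26, SE 0.069) and TMEM186 (0.21, SE 0.063) rose and TMEM126B (-0.28, SE 0.069) fell after siATM. Over all tested genes, 12.5% rose and 13% fell. NUBPL, an iron-sulfur carrier for complex I, fell after sip53 (-0.46, SE 0.098, adjusted p = 0.030). All 4 of these calls were lost in at least 3 of 6 fits with an array left out (adjusted p up to 0.203), and that of TMEM186 in 12 of all 14 alternatives. After sip53, over all 48 assembly factors, LYRM7 was the only one that rose and NUBPL the only one that fell. Of all tested genes, 5.47% rose and 5.11% fell after sip53. In the direct comparison 6 of the 48 were higher with siATM and 8 lower, near the 14% and 16.3% of all tested genes. ATPAF1 (-0.72, SE 0.054), SDHAF3 (-0.84, SE 0.095), SDHAF2 (-0.33), SDHAF4 (-0.29), TMEM126B (-0.45) and TACO1 (-0.47) were lower with siATM than with sip53, and SURF1 (0.46) and COA6 (0.48) were higher. Of these, SDHAF2 lost its direct call in 3 of 6 fits with an array left out (adjusted p up to 0.0632) and SDHAF4 in 2 (up to 0.0584), and the other 6 in none.

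Among 10 tested genes of electron carriers, other ubiquinone reductases and ubiquinone itself (the COQ genes), 2 rose and 2 fell after siATM, and 2 fell after sip53. The other 6 did not pass after siATM, nor the other 8 after sip53. Over all tested genes, 12.5% rose and 13% fell after siATM, and 5.47% rose and 5.11% fell after sip53. SQOR, which passes electrons from sulfide to ubiquinone, was at 9.84 and 9.78 with siNC, 9.41 and 9.41 with siATM, and 9.52 and 9.31 with sip53, a fall of 1.32-fold in each comparison (adjusted p = 0.0104 and 0.0222). GPD2, the mitochondrial glycerol phosphate dehydrogenase, fell by 0.35 and 0.36 (SE 0.077 each). ETFDH, which passes electrons from fatty acid oxidation, rose after siATM (0.35, SE 0.073), as did COQ4 (0.25, SE 0.068). SQOR lost its siATM call in 1 and its sip53 call in 3 of 6 fits with an array left out, GPD2 in 3 and 3, ETFDH in 2 and COQ4 in 5.

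A list of 11 genes covered the citric acid cycle and the entry of pyruvate into it (PDHA1, PDHB, DLAT and PC). Against siNC, 3 fell after siATM and 1 after sip53, and 0 rose (medians -0.12 and -0.042). Over all tested genes, 13% fell and 12.5% rose after siATM, and after sip53 5.11% fell and 5.47% rose. IDH3A, a subunit of the NAD-linked isocitrate dehydrogenase, had a siATM difference of -0.42 (SE 0.078, adjusted p = 0.00833), DLD, the shared lipoamide dehydrogenase, of -0.33 (SE 0.054), and PC, pyruvate carboxylase, of -0.26 (SE 0.062). The fall after sip53 was in CS, the citrate synthase, at 8.92 and 8.94 with siNC, 9.11 and 8.96 with siATM, and 8.41 and 8.49 with sip53. Both sip53 arrays of CS were below the other 4 (-0.48, SE 0.068, adjusted p = 0.00724), and CS was 1.5-fold higher with siATM than with sip53 (adjusted p = 0.00105). The call against siNC was lost in 2 of 6 fits with an array left out (adjusted p up to 0.062) and that between knockdowns in 0. IDH3A and DLD kept their siATM calls in all 6, and PC lost its call in 3.

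VDAC1, the main pore of the outer mitochondrial membrane, was at 11.49 and 11.49 with siNC, 11.47 and 11.45 with siATM, and 11.07 and 11.04 with sip53. It fell after sip53 (-0.43, SE 0.054, adjusted p = 0.00438), a call kept in all 6 fits with an array dropped, and was 1 of 3 tested carriers and channels. Of 11 regulators of mitochondrial transcription and biogenesis, 3 rose after siATM and 0 after sip53, beside 12.5% and 5.47% of all tested genes: MYC (0.40, SE 0.060, adjusted p = 0.00371), ESRRA, a nuclear receptor that drives respiratory chain genes (0.34, SE 0.092, adjusted p = 0.0349), and NFE2L2 (0.22, SE 0.061). The ESRRA call was lost in 9 of 14 alternatives, quantile normalization and centring included. MYC kept its call in all 6 fits with an array left out, and ESRRA and NFE2L2 each lost theirs in 5. Of 9 glycolysis genes, HK2, a hexokinase that binds mitochondria, rose after siATM (0.28, SE 0.062), a call lost in 2 of those fits, and 0 changed after sip53. Over all tested genes, 10.6% changed after sip53, with 5.47% higher and 5.11% lower. None of the 13 genes of mitochondrial DNA is named in the annotation used, and they are not analysed here.

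**Figure D4:**
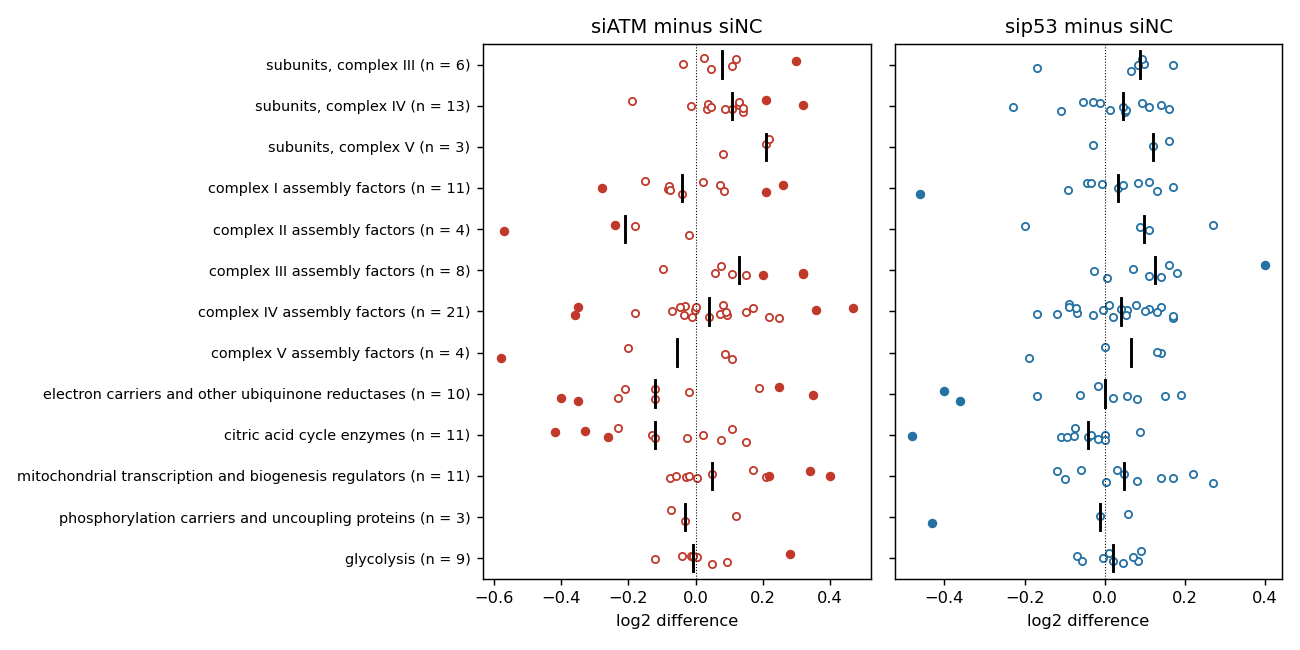
Log2 difference of every tested subunit gene and pathway list gene, by list, for siATM minus siNC and sip53 minus siNC; filled points have a limma adjusted p below 0.05 and vertical bars are medians, with points spread vertically for legibility. The subunit medians lie right of 0 in both panels, and among the genes plotted, which leave out the cell type markers, the largest siATM differences in size are those of the assembly factors ATPAF1 (-0.58) and SDHAF3 (-0.57).

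Markers of this line and of other cells moved with the siRNA in single genes. Of the 7 tested mesenchymal-type markers, FOSL1 fell after siATM (-0.25, SE 0.064) and ZEB1 after sip53 (-0.24, SE 0.058). Of 7 haematopoietic markers 3 were named, and 2 rose after siATM, CD14 (1.19, SE 0.099) and LYZ (0.38, SE 0.057), while CD14 fell after sip53 (-0.78, SE 0.099). The mean log2 value over the 3 was 9.06 to 9.11 with siNC, 9.65 to 9.66 with siATM and 8.67 to 8.78 with sip53. Of 7 endothelial and fibroblast markers 4 were named, with a mean of 5.54 to 5.64 with siNC, 5.55 to 5.65 with siATM and 5.69 to 5.72 with sip53. Among these VWF and DCN were under the brightness limit. LUM rose after siATM (0.68, SE 0.082) and sip53 (0.49, SE 0.082), and PECAM1 fell after siATM (-0.47, SE 0.094). Of the 9 luminal markers named, GATA3 rose after siATM (0.31, SE 0.080) and sip53 (0.65, SE 0.080) and KRT19 after siATM (0.29, SE 0.067), with list means of 7.29 to 7.30 with siNC, 7.24 to 7.37 with siATM and 7.34 to 7.35 with sip53. Beside these calls, 12.5% of all tested genes rose and 13% fell after siATM, and 5.47% rose and 5.11% fell after sip53. The part of the markers in the subunit values was not tested.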

How the data were processed

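RNA was measured on 6 arrays, 2 per siRNA. The authors deposited 1 value for each probe set and array; that the deposited values are log2 was read from their range (1.33 to 14.2). How background was corrected and probes summarised and normalized, and the annotation build, are not given in the sources used here. Once sorted, the deposited log2 values of the arrays lay on average within 0.0325 of each other, so the arrays had nearly one distribution, and a change in total RNA would not show. No scanner file was analysed here, so detection calls and scan batches were not tested; precision is limited by the number of arrays.

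Of 53617 probe sets, 16098 had 1 gene symbol, 0 several, and 37519 were unnamed here. They covered 14884 genes. Those whose mean reached 5.96, which is the median of the probe-set means, were tested (10640; 4244 dimmer genes were not). All 6 arrays entered 1 model of group means in limma 3.58.1 (R 4.3.3; 3 residual and 7.29 total degrees of freedom), two-sided, with Benjamini-Hochberg adjustment within each comparison and a threshold of 0.05. The fit was tested on simulated data. Alternatives were quantile normalization, centring, other filters, a variance trend, averaged probe sets, fits on 4 arrays, each array left out, and a replicate block.

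Members named with all values were those that changed, the highest and lowest of each complex, and alternative subunits; further members, and list genes beyond the 4 largest, were named after their values were seen. The members and lists were chosen with earlier results of these data known. The targeted transcripts are not reported here. Promoters are from RefSeq, GRCh38.p14.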

Additional observations from a re-analysis of the deposited data

Results flagged for a closer look

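COX7A2L differed between the 2 knockdowns in a test of the difference itself: siATM minus sip53 was 0.37 (SE 0.071, limma adjusted p = 0.00773), with the siATM arrays above and the sip53 arrays below the siNC arrays. Over the 14 alternatives its difference lay between 0.29 and 0.45 and its adjusted p between 0.00186 and 0.0536, and 1 alternative, without sip53 replicate 1, ended the call.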

How the results depend on the processing

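The number of members that rose after siATM, 3, was 0 without the filter on dim genes, 5 with the filter at the 70th percentile of brightness (7.22), 5 with a variance trend and robust moderation and 1 in a fit on 4 arrays; with 1 array left out it ranged from 0 to 3. For sip53 the count of 0 was 1 with the filter at the 70th percentile (COX7A2L, lower, adjusted p = 0.037). For siATM against sip53 the count of 1 was 3 with centred arrays, 3 with the filter at the 70th percentile and 2 with a variance trend, and 0 to 3 with 1 array left out. The members with a mean above siNC numbered 17 to 19 of 22 for siATM and 15 to 16 for sip53 with 1 array left out, and 19 and 14 with centred arrays; this count was added after the data were seen. The sip53 median of complex IV (0.047) was 0.0074 without the filter, which brings in the dim alternative forms. With 1 array left out, medians after siATM ranged from 0.025 to 0.11 in complex III, 0.072 to 0.16 in IV and 0.12 to 0.24 in V, and after sip53 from 0.047 to 0.12, 0.0082 to 0.064 and 0.039 to 0.18; all stayed above 0. Over all genes, the 1126 changes after sip53 were 481 without the filter and 1742 with a variance trend, and split 410 higher and 668 lower with centred arrays against 582 and 544. With 1 array left out, 1437 to 2226 genes changed after siATM (1437 and 1489 without siNC replicate 1 and 2), 272 to 1242 after sip53 (at most 329 without a siNC or sip53 array) and 1842 to 2852 between knockdowns (1842 and 1884 without sip53 replicate 1 and 2).

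Replicate numbers are shared between groups, but the labels do not say that they pair samples, and the correlations of replicate deviations were 0.0363, 0.0277 and 0.117. With the replicate number as a block, the counts of members were 3, 0 and 1, and 2696 genes changed after siATM; among the list genes named, UQCC2 and TMEM186 lost their siATM calls. Over 105 differences of single genes and 1455 values under the alternatives, none of the 861 values called in at least 1 of the 2 fits compared changed sign; of the 594 called in neither, 19 did, in 10 differences. Of all 1455, 197 lost a call and 13 gained one. Complexes I and II gave no value, and moving NDUFA4 to complex I was not run, since it is not among the genes named. With 3 residual degrees of freedom, small shifts such as those of these subunits are near the limit of what the arrays resolve.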

Other observations

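Although no complex I subunit gene is named in the annotation used, 2 non-coding genes named after such genes are. NDUFB2-AS1, an antisense RNA gene beside NDUFB2, was at 7.76 and 7.75 with siNC, 7.47 and 7.46 with siATM, and 7.60 and 7.58 with sip53, and the 3 groups did not overlap. Its siATM difference was -0.29 (SE 0.054, limma adjusted p = 0.0087) and its sip53 difference -0.16 (SE 0.054, adjusted p = 0.103). NDUFA6-DT, a divergent transcript of NDUFA6, was at 7.61 and 7.13 with siNC, 7.15 and 7.35 with siATM, and 7.22 and 7.20 with sip53, with arrays that overlapped and differences of -0.12 and -0.16 (SE 0.15 each). Whether probes on an array read these transcripts apart from their neighbours was not tested, and both were chosen for description after their values were seen.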
